A study of Mus musculus with 18 samples.

Results

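RNA from quadriceps myofibers was compared between male mice that received prednisone every day and male mice that received it once a week. The genes described are those with 10 or more counts in at least 3 of the 6 libraries of these groups, which were 12960 of the 43430 genes in the table and of the 24370 genes with at least 1 count. Of these, 11821 reached 10 counts in all 6 libraries, 39 passed only through the daily libraries and 15 only through the weekly libraries. All mice were C57BL/6 in the labels (C57BL/6J in the study's methods) and, per the study's methods, 10 weeks old at the start and injected into the abdomen every day for 4 weeks. Male daily mice received 1 mg/kg prednisone at each injection. Male weekly mice received 1 mg/kg prednisone on 1 day of 7 and the DMSO vehicle on the others, with 5 prednisone injections in all and the last given 2 days before the muscle was taken. The regimens therefore differ both in the number of doses and in the time since the last dose, and these cannot be told apart. Male vehicle mice received the DMSO vehicle alone. They and the female daily and weekly mice, on the same regimens as the males, are shown beside the comparison where they bear on it. Each group had 3 libraries, which the study's methods describe as separate animals.

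Prednisone is converted in the body to prednisolone, a ligand of the glucocorticoid receptor. The bound receptor enters the nucleus, binds DNA at glucocorticoid response elements and raises or lowers the transcription of nearby genes. In skeletal muscle, sustained glucocorticoid exposure is known for atrophy through the ubiquitin ligases MuRF-1 and atrogin-1, for reduced insulin-stimulated glucose uptake, and for effects on the clock genes, since the natural hormone itself follows a daily rhythm.

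Total counts lay between 10698148 and 14109022 in the daily libraries and between 11074280 and 14208799 in the weekly libraries. Across genes, the spread between libraries of a group corresponded to a biological coefficient of variation of 0.222 and to a median standard error of 0.22 for a log2 difference. The 7 myofibre markers, such as Acta1, Ckm and Myh4, summed to 125700 to 142500 CPM (counts scaled to library size with TMM factors) in the daily and 115700 to 135600 CPM in the weekly libraries, so the defining markers of the labelled tissue were abundant in both. Collagenase-treated muscle kept back by a strainer still holds other cells, and a bulk library cannot tell fewer cells of a type from less RNA per cell. Mitochondrially encoded transcripts took 17.7% to 24.5% of the counts in the daily libraries and 25.6% to 27.6% in the weekly libraries, while the male vehicle libraries spanned 17% to 32.6%. Counts of replicate libraries differed by more than sampling noise in every male daily and weekly pair.

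Before adjustment for the number of genes tested, many genes had modest differences between daily and weekly prednisone. No single gene passed the test that was set as the main one. By edgeR's quasi-likelihood test in a fit of all 18 libraries, 0 of 12960 genes (0.0%) had an adjusted p under 0.05, and the smallest adjusted p was 0.0619. At an unadjusted p under 0.05, 849 genes were higher in daily males (6.55% of genes tested) and 931 were lower (7.18%), 1780 in all. Of these, 87 were higher and 62 were lower by more than 1 on the log2 scale. All 3 daily libraries lay above all 3 weekly libraries for 1559 genes (12%) and below them for 1679 genes (13%). With library totals in place of TMM factors these counts were 2584 and 915, so the balance of higher and lower genes depends on the scaling. A filter without a test, which asked for a log2 difference beyond 0.5 in genes whose mean log2 CPM exceeded 2.5, passed 419 genes higher in daily males (3.23%) and 392 lower (3.02%).

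Other fits of the same counts did call genes. edgeR on the 9 male libraries alone, where the spread is estimated from males only, called 130 genes higher (1.0%) and 165 lower (1.27%) in daily males. DESeq2 on all 18 libraries called 96 higher (0.741%) and 131 lower (1.01%), and 153 genes were called by both, all with daily and weekly libraries that did not overlap. edgeR on the 6 libraries alone called 10 genes, and all 10 were among those called with 9 libraries. limma-voom called 0 genes, with 1794 at an unadjusted p under 0.05. With 3 mice against 3, an exact permutation test of a single gene cannot go below p = 0.1, so the values in every library are given for the genes described.

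The genes that were higher in daily males with the smallest p included regulators of glucose uptake, RNA processing, translation and glutathione synthesis. Tbc1d4 (chromosome 14, 101442360 to 101609191, mm10), which encodes a Rab GTPase-activating protein that holds back the GLUT4 glucose transporter until insulin signals, had 30.6, 21.8 and 34.9 CPM in the daily libraries and 14.7, 13.8 and 13.6 CPM in the weekly libraries. Every daily library was higher, and the male vehicle libraries lay between the groups in part, at 17.6 to 23.2 CPM. The log2 difference of Tbc1d4 was 1.05 ± 0.18 (standard error, 3 libraries in each group). The edgeR adjusted p was 0.0619, and 0.0196 in the fit of 9 male libraries. Rbbp6 (chromosome 7, 122965686 to 123002557), a ubiquitin ligase that binds the retinoblastoma protein, had 42.3, 41.2 and 47.4 CPM in daily and 25.4, 23.2 and 24.0 CPM in weekly males. Its weekly values overlapped the vehicle range of 22.9 to 24.7 CPM, and the log2 difference was 0.85 ± 0.15 (edgeR adjusted p = 0.0836). Hnrnph1, a splicing factor, had 170.5, 182 and 180.0 CPM against 117, 98.3 and 106 CPM. Gclc, the catalytic subunit of the first enzyme of glutathione synthesis, had 24.1, 19.1 and 25.6 CPM against 15.5, 13.6 and 13.6 CPM. Gigyf2, which takes part in the repression of translation, had 36.8, 33.5 and 40.5 CPM against 24.6, 25.4 and 26.7 CPM.

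The 12 genes with the smallest p among those higher in daily males had log2 differences of 0.53 to 1.62 and adjusted p values of 0.0619 to 0.13 in the fit of all 18 libraries. All 12 were called in the fit of 9 male libraries and 11 by DESeq2, which gave Cd68 no adjusted p. These fits use the same counts by which the 12 were picked, so their calls are not independent of the choice. They also included Kidins220, a scaffold of neurotrophin receptors, Fry, a microtubule-binding protein, Wls, which carries Wnt proteins to the cell surface, Slc12a2, a sodium, potassium and chloride cotransporter, and Gse1, a component of a histone demethylase complex. Most of their transcripts were long (Cd68 was an exception), with a median of 6034 bases for the longest coding transcript, and all 12 had the same sign in females. Cd68, a lysosomal protein typical of macrophages, had 5.83, 7.67 and 4.97 CPM in daily and 2.11, 1.63 and 2.23 CPM in weekly males, a log2 difference of 1.62 ± 0.30.

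**Figure D1:**
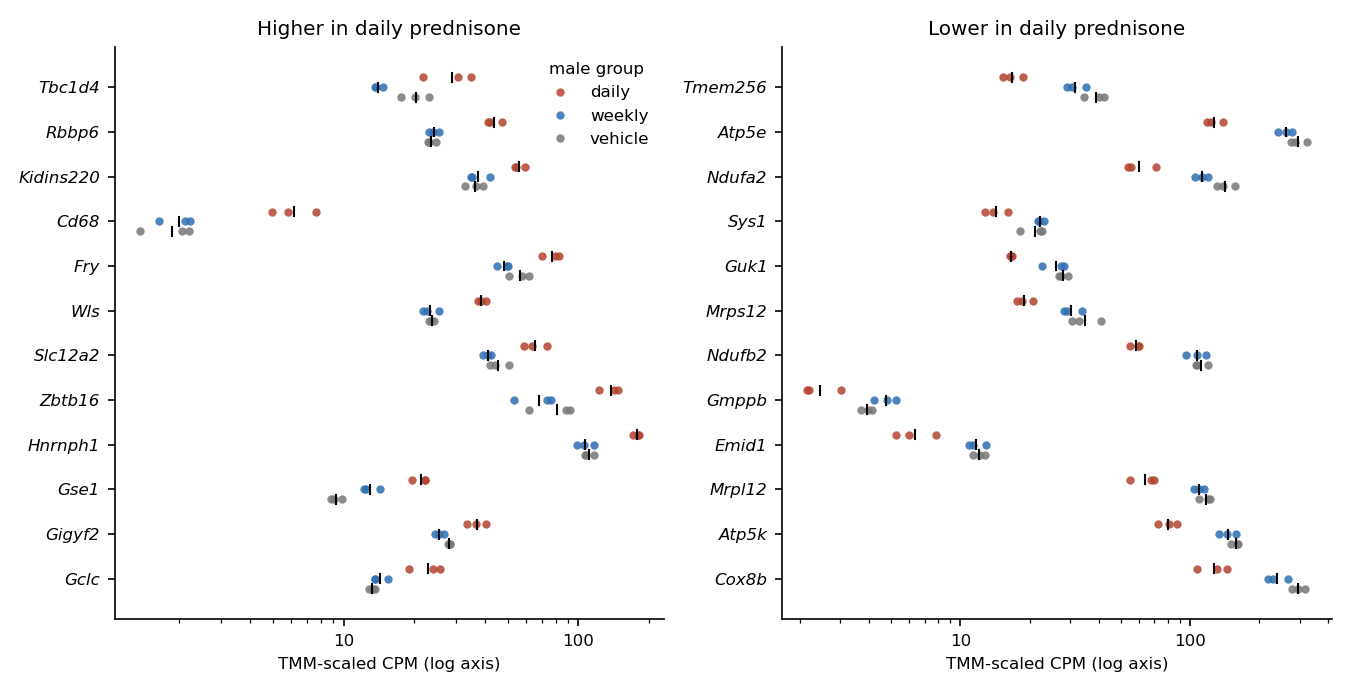
TMM-scaled CPM on a log axis of the 12 genes with the smallest p among those higher (left) and lower (right) in daily males, with 1 point per library, vertical bars for group means, and daily, weekly and vehicle males in separate rows of points. Daily and weekly libraries do not overlap for any of the 24 genes, which the rule for showing them required.

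Among named genes with a mean log2 CPM above 1, an unadjusted p under 0.05 and groups that did not overlap, the 4 largest positive differences were in Lag3, Mir17hg, Iigp1 and Odf3l2. Lag3, an inhibitory receptor best known from T cells, had 10.5, 10.7 and 7.41 CPM in daily and 1.93, 0.863 and 1.88 CPM in weekly males, a log2 difference of 2.59 ± 0.69. Mir17hg, the host transcript of the miR-17 cluster, had 3.19, 7.67 and 3.71 CPM against 1.41, 1.25 and 0.626 CPM (log2 difference 2.18 ± 0.56). Odf3l2, related to proteins of the sperm tail, had 89.0, 78.3 and 68.1 CPM against 24.5, 24.4 and 16.9 CPM (1.84 ± 0.58). Iigp1, an interferon-inducible GTPase, had 73.3, 67.0 and 62.2 CPM against 21.5, 8.63 and 25.2 CPM (1.87 ± 0.59). All 4, which were picked from the same counts, were called with 9 male libraries (edgeR adjusted p from 0.00793 to 0.0296), and none in the fit of 18.

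Under the same conditions the largest negative difference was in Nmrk2 (chromosome 10, 81198170 to 81202037), the muscle kinase that turns nicotinamide riboside into a precursor of NAD. Nmrk2 had 107, 65.6 and 74.4 CPM in daily and 311, 459 and 289 CPM in weekly males, with 214 to 392 CPM in vehicle males. The daily libraries were thus below all 6 of the others, and the log2 difference between daily and weekly was -2.10 ± 0.47 (95% interval -3.10 to -1.10, edgeR adjusted p = 0.13, and 0.0161 with 9 male libraries and 0.0012 by DESeq2). Of the other 12 genes of NAD synthesis and the sirtuins, the NAD-dependent deacylases, Sirt1 had 29.3, 32.5 and 24.4 CPM in daily and 14.8, 8.82 and 11 CPM in weekly males, a log2 difference of 1.31 ± 0.37 (edgeR adjusted p = 0.161, and 0.0169 with 9 male libraries). The list of 13 had 2 genes higher and 11 lower in daily males with a median of -0.10, against a median of 0.01 over all genes tested. Sirt3, the mitochondrial sirtuin, had a log2 difference of -0.44 ± 0.19, and Nampt, which recycles nicotinamide, one of 0.28 ± 0.17. Micall2, Timp1, an inhibitor of matrix proteases, and Ptx4, a pentraxin, had the next largest negative differences, of -1.72 ± 0.51, -1.70 ± 0.78 and -1.33 ± 0.58, at levels under 10 CPM in every male daily and weekly library, and none of the 3 was called in the fit of 9 male libraries or had an adjusted p by DESeq2.

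Genes of the respiratory chain were lower in daily than in weekly males almost throughout. The chain passes electrons from NADH and succinate to oxygen through complexes I to IV and drives the ATP synthase, complex V. Of 78 nuclear genes for its subunits, 76 were lower in daily males, 60 were lower at an unadjusted p under 0.05, and 67 had all 3 daily libraries below all 3 weekly libraries, against 7.18% and 13% of all genes tested. The fit of 9 male libraries called 44 of the 78 and DESeq2 called 35, all lower in daily males. These fits called 1.27% and 1.01% of all genes as lower, and the edgeR fit of 18 libraries called 0 of the 78. The median log2 difference was -0.61, with -0.61 for 36 genes of complex I, -0.47 for 4 of complex II, -0.60 for 9 of complex III, -0.67 for 14 of complex IV and -0.62 for 15 of complex V. The mean log2 CPM of the 78 genes was 7.15, 6.86 and 7.25 in the daily libraries, 7.55, 7.79 and 7.69 in the weekly libraries and 7.75 to 7.85 in the vehicle libraries.

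Single subunits showed the size of this difference. Atp5e (chromosome 2, 174461072 to 174464105), the epsilon subunit of the ATP synthase, had 139.7, 123 and 119 CPM in daily and 242, 277 and 263 CPM in weekly males, and the log2 difference was -1.04 ± 0.19 (edgeR adjusted p = 0.0836, and 0.00793 with 9 male libraries). Cox8b, the form of a complex IV subunit found in heart and skeletal muscle, had 131, 107 and 144 CPM against 229, 266 and 219 CPM. Cox7a1, another muscle form, had 102, 78.0 and 116 CPM against 171, 208 and 199.9 CPM, and Uqcrq of complex III had 121, 87.6 and 145 CPM against 205, 241 and 231 CPM. None of these groups overlapped. Ndufa2 and Ndufb2 of complex I, Atp5k of complex V, and the mitochondrial ribosomal proteins Mrps12 and Mrpl12 were likewise among the 12 lower genes with the smallest p. Subunits at nearly the same level in both groups were Sdha of complex II, with 577, 471 and 678 CPM against 517, 615 and 582 CPM and Ndufs1 of complex I, with 239, 197 and 290.5 CPM against 204, 262 and 247 CPM. Their log2 differences of 0.01 ± 0.21 and 0.03 ± 0.22 have 95% intervals of -0.43 to 0.45 and -0.44 to 0.50.

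The rest of the 12 lower genes with the smallest p lay outside the chain and the mitochondrial ribosome. Tmem256 (chromosome 11, 69838514 to 69839618), a small membrane protein, had 18.8, 15.3 and 16.5 CPM in daily and 30.6, 35.3 and 29.2 CPM in weekly males, a log2 difference of -0.91 ± 0.15 (edgeR adjusted p = 0.0619). Guk1, the guanylate kinase that turns GMP into GDP, had 16.7, 16.7 and 16.4 CPM against 22.7, 28.3 and 27.4 CPM, and Gmppb, which makes GDP-mannose for protein glycosylation, had 2.15, 2.2 and 3.02 CPM against 5.27, 4.22 and 4.80 CPM. Sys1, a Golgi protein, and Emid1 had log2 differences of -0.64 ± 0.13 and -0.88 ± 0.19. All 12 were called in the fit of 9 male libraries and 10 by DESeq2, again from the same counts by which they were picked.

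Ribosomal protein genes showed the same direction at a smaller size. Of 81 cytosolic ribosomal protein genes, 80 were lower in daily males, 60 at an unadjusted p under 0.05, and 71 had separate groups, against 7.18% and 13% of all genes tested. Their median log2 difference was -0.36, or -0.13 with length and GC trends removed as described below, and the fit of 9 male libraries called 6 and DESeq2 17 of them, against 1.27% and 1.01% of all genes. Rpl37a had 88.1, 81.2 and 74.1 CPM in daily and 139.8, 136 and 111 CPM in weekly males, and Rplp1, a protein of the ribosomal stalk, had 225, 214 and 185 CPM against 337, 341 and 282 CPM. Of 73 mitochondrial ribosomal protein genes, 71 were lower, 39 at an unadjusted p under 0.05, against 7.18% of all genes. Their median was -0.36, or -0.20 with length and GC trends removed. The 13 mitochondrially encoded proteins had a median of -0.51 with 12 lower. Of the 13, 2 were lower at an unadjusted p under 0.05, against 7.18% of all genes. A core subunit of complex IV, mt-Co1, had 60230, 55640 and 79260 CPM against 111300, 106100 and 88110 CPM. Its log2 difference was -0.65 ± 0.35. Genes such as mt-Nd3, with 5.46 to 5.85 CPM in daily and 10.9 to 13.7 CPM in weekly males, have near-identical nuclear copies that can share their reads, so their levels are uncertain. Proteasome subunits had a median of -0.19, or -0.04 with length and GC trends removed. Of 37, 32 were lower, 6 at an unadjusted p under 0.05, against 7.18% of all genes.

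The difference between daily and weekly males also followed transcript length across all genes. In 5 classes of about equal size by the length of the longest coding transcript, the median log2 difference was -0.25 for the shortest genes (up to 1751 bases), then -0.07, 0.02 and 0.09, and 0.18 for the longest (5174 bases or more). Genes under 1000 bases that belong to none of the respiratory chain and ribosomal lists had a median of -0.34 (665 genes), and those in these lists had a median of -0.51 (119 genes). At an unadjusted p under 0.05, 194 of the 665 and 95 of the 119 were lower in daily males, and 13 and 0 were higher. The shortest class was lower than the mean of the 9 male libraries by a median of 0.16 to 0.22 in each daily library, was within 0.12 above it in each weekly library, and was 0.13 to 0.22 above it in each vehicle library. The 78 respiratory chain genes had a median length of 870 bases and the 81 cytosolic ribosomal protein genes one of 937 bases, against 3142 over all genes tested. With each library's trend on length and GC content removed, an alternative added after the data were seen, the medians were -0.34 for the respiratory chain, -0.13 for cytosolic and -0.20 for mitochondrial ribosomal proteins and -0.01 over all genes, and 968 genes had an unadjusted p under 0.05. The part of RNA quality or library preparation in this trend was not tested.

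**Figure D2:**
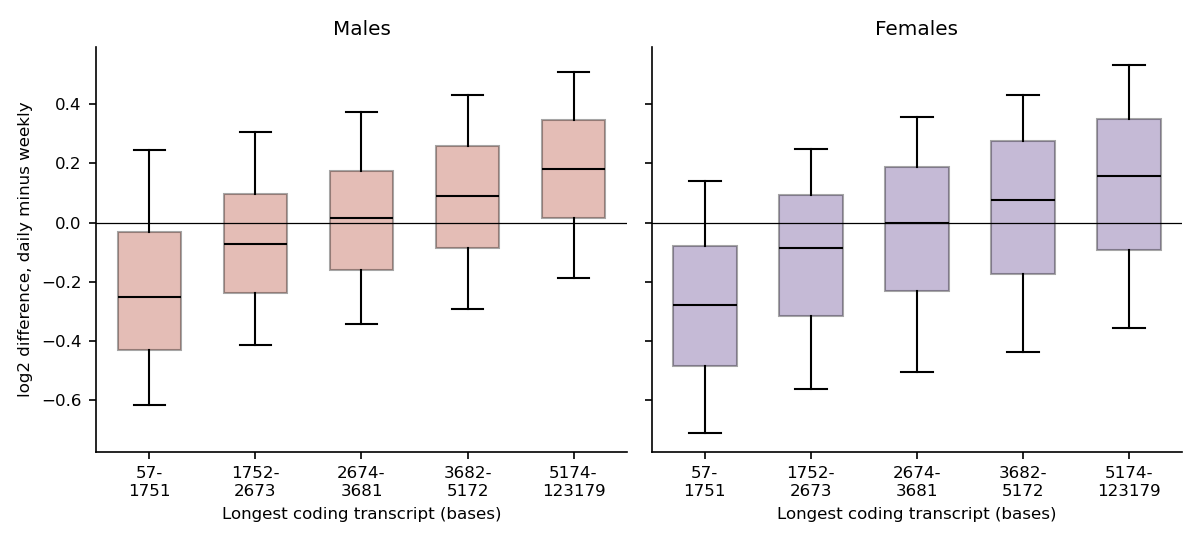
Log2 difference between daily and weekly prednisone (y axis) in 5 classes of genes by the length of the longest coding transcript in bases (x axis), in males and females. Boxes span the quartiles with the median as a line, and whiskers reach the 10th and 90th percentiles. The male medians go from -0.25 in the shortest class to 0.18 in the longest, and the female medians from -0.28 to 0.16.

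Other pathways of energy metabolism had medians near 0. The medians were -0.10 for 24 genes of pyruvate oxidation and the TCA cycle, with 0 at an unadjusted p under 0.05, -0.10 for 23 genes of fatty acid uptake and oxidation, with 1 lower, and -0.03 for 19 genes of glycolysis and glycogen, with 1 lower. Over all genes, 6.55% were higher and 7.18% lower at that limit. Groups were separate for 2 higher and 3 lower, 1 and 3, and 2 and 6 genes of these lists in turn, against 12% and 13% of all genes. Within these lists the highest value belonged to Pdk4, the kinase that switches pyruvate dehydrogenase off, which had 1676, 1321 and 1925 CPM in daily and 467, 713 and 1159 CPM in weekly males. The daily libraries were all higher, and the log2 difference was 1.07 ± 0.53 (edgeR adjusted p = 0.396). Branched-chain amino acid catabolism (15 genes), the lipid droplet list (13), de novo lipogenesis (12), autophagy and lysosome genes (21) and heat shock proteins (14) had medians between -0.06 and 0.06. Ppargc1a, a coactivator of mitochondrial genes, had 37.3, 23.4 and 44.1 CPM in daily and 15.5, 22.9 and 23.2 CPM in weekly males, a log2 difference of 0.76 ± 0.45 and so in the opposite direction to the respiratory chain genes.

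**Figure D3:**
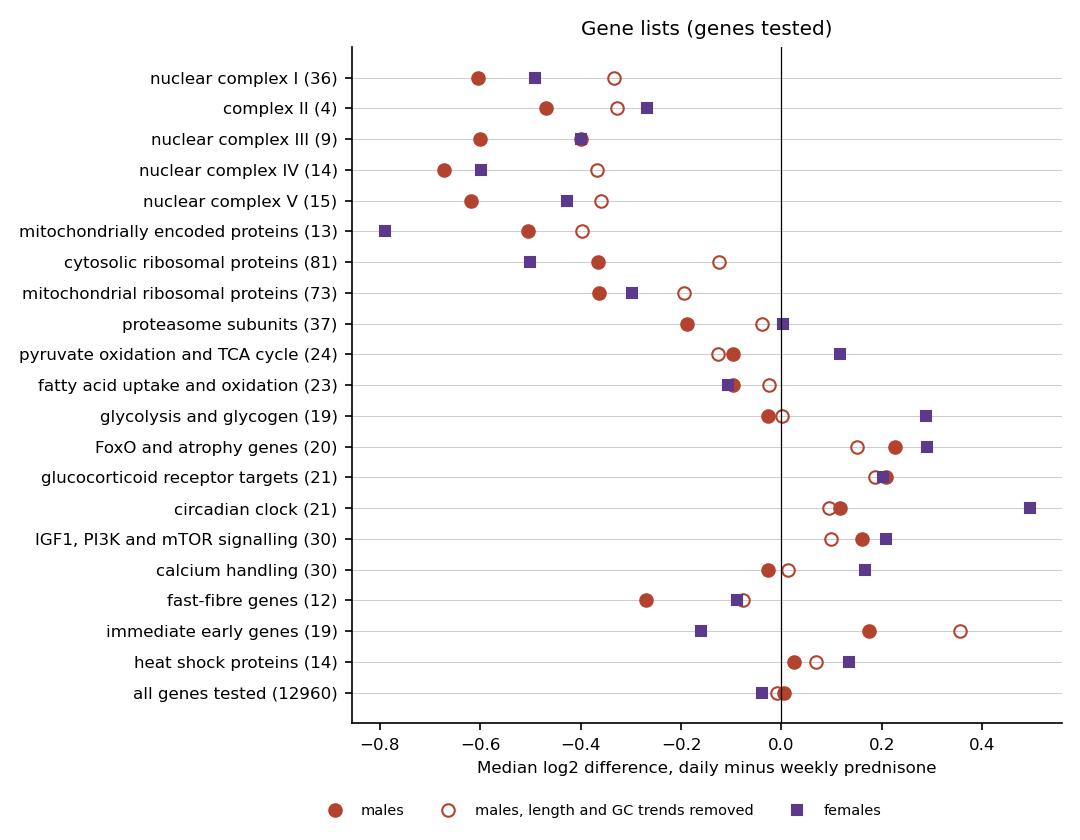
Median log2 difference between daily and weekly prednisone (x axis) of 20 gene lists and of all genes tested, with the number of genes in brackets. Filled circles are males, open circles males with length and GC trends removed, and squares females. Among the lists shown, those of the respiratory chain and ribosomes lie furthest to the left in males, between -0.67 and -0.36. They are nearer 0 when the trends are removed. Slow-fibre genes (-1.67), brown adipocyte markers (-1.17) and red cell markers (-0.67) are not shown.

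Genes of muscle atrophy were higher in daily than in weekly males in 18 of 20 cases, with a median log2 difference of 0.23. Of the 20, 4 were higher at an unadjusted p under 0.05 and 9 with separate groups, against 6.55% and 12% of all genes. Trim63, which encodes MuRF-1, had 1004, 736 and 598 CPM in daily and 362, 451 and 272 CPM in weekly males. Fbxo32, which encodes atrogin-1, had 842, 686 and 946 CPM against 359.7, 583 and 519 CPM. Neither overlapped between the groups, and the log2 differences were 1.11 ± 0.53 for Trim63 (edgeR adjusted p = 0.371, and 0.0317 with 9 male libraries) and 0.76 ± 0.43 for Fbxo32 (0.473, and 0.0742 with 9 male libraries). For both genes the daily libraries overlapped the vehicle libraries (579 to 699.9 CPM for Trim63 and 635 to 920.3 CPM for Fbxo32), and the weekly libraries were below them. Fbxo30, the ligase MUSA1, had 19.5, 17.8 and 21.9 CPM against 12.1, 11.6 and 10.4 CPM (0.79 ± 0.19, adjusted p = 0.13, and 0.0191 with 9 male libraries). Its weekly libraries were near the vehicle range of 9.63 to 10.1 CPM. Mstn, the secreted inhibitor of muscle growth, had 52.3, 46.1 and 57.3 CPM against 37.5, 39.8 and 25 CPM (0.61 ± 0.25), while Foxo1, a transcription factor upstream of these genes, had 57.7, 37.6 and 31.6 CPM against 42.0, 40.4 and 24.5 CPM, with groups that overlapped.

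Of 21 known targets of the glucocorticoid receptor, 14 were higher in daily males, 2 at an unadjusted p under 0.05 and 6 with separate groups, against 6.55% and 12% of all genes tested. The median was 0.21, and with 1 library left out it was 0.02 without daily replicate 1, 0.05 without weekly replicate 3 and up to 0.41 without weekly replicate 1. Zbtb16 (chromosome 9, 48654311 to 48835945), a zinc finger repressor, had 147, 122 and 142 CPM in daily and 73.9, 53.1 and 76.3 CPM in weekly males, a log2 difference of 1.02 ± 0.21 (edgeR adjusted p = 0.118, and 0.0262 with 9 male libraries). Glul, glutamine synthetase, had 762, 509.6 and 679.8 CPM against 397, 319 and 246 CPM (1.02 ± 0.35, adjusted p = 0.22, and 0.0298 with 9 male libraries). Fkbp5, a cochaperone that dampens the receptor, had 119, 102 and 86.1 CPM against 78.1, 54.6 and 46.5 CPM (0.78 ± 0.42), and Klf15, a regulator of amino acid breakdown, had 46.2, 37.2 and 37.5 CPM against 27.6, 33.6 and 23.5 CPM (0.52 ± 0.25). The daily libraries of all 4 were higher than the weekly ones. Others did not separate. Tsc22d3, which encodes GILZ, had 461, 332 and 351 CPM against 378, 417 and 271 CPM (0.10 ± 0.21), and the metallothionein Mt1 and the kinase Sgk1 had log2 differences of 0.02 ± 0.51 and 0.22 ± 0.23. Per1 and Ddit4 had negative values with wide errors, -0.39 ± 0.36 and -0.74 ± 0.76.

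**Figure D4:**
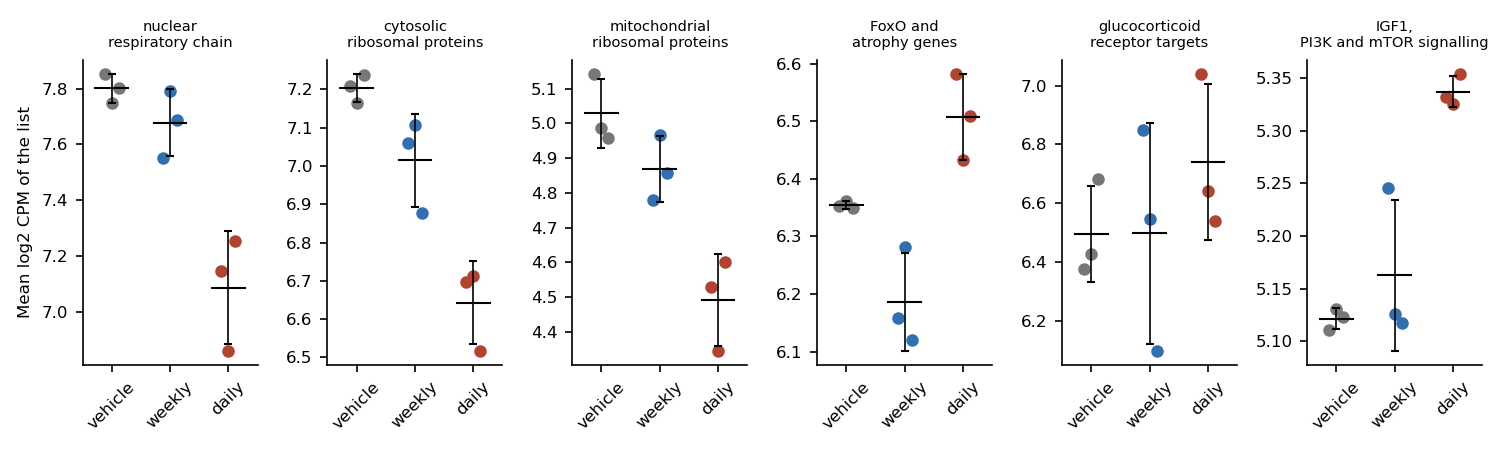
Mean log2 CPM (y axis) of 6 gene lists in each of the 9 male libraries, with the group mean as a horizontal bar and the SD as an error bar (n = 3). Daily libraries lie below all others for the respiratory chain and both ribosomal lists and above all others for the atrophy and the IGF1, PI3K and mTOR lists, while the receptor targets overlap between groups.

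The consensus motif of the glucocorticoid receptor, ACANNNTGT, was searched on both strands in RefSeq promoter windows (GRCm38.p6, 250 bases before to 50 after the start), which matched 9892 of the genes tested by symbol. It was found in 5.1% of these genes, in 3 of 18 matched receptor targets (Glul, Mt1 and Sgk1), in 1 of 9 matched genes among the 12 higher in daily males (Gse1), and in none of 9 among the 12 lower or of 64 matched respiratory chain genes. The windows that hold it are shown up to the start or the first annotated exon, so that the site can be set beside the values of its gene, with the motif in capitals. They lie 25 bases before the start for Glul, 92 for Mt1, 127 and 186 for Sgk1, which has 2 such windows at different starts, and 229 for Gse1. The windows of Sgk1 and Gse1 are in introns of longer transcripts of the same gene. Of the 3 receptor targets, Glul had daily libraries above all weekly libraries, and Mt1 and Sgk1 did not. Gse1 had them too, but the rule that picked the 12 higher genes required it.
Glul, chr1:153899679-153899928, plus strand: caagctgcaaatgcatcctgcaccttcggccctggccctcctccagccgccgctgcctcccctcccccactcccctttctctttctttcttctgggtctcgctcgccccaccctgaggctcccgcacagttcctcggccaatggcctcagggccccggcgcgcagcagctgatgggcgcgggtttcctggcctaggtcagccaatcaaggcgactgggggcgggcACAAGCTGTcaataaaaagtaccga
Mt1, chr8:94178839-94179081, plus strand: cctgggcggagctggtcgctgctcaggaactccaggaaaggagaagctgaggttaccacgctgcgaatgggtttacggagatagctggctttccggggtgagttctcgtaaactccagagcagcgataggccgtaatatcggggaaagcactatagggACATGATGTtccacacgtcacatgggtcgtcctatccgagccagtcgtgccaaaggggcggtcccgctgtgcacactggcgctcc
Sgk1, chr10:21978422-21978671, plus strand: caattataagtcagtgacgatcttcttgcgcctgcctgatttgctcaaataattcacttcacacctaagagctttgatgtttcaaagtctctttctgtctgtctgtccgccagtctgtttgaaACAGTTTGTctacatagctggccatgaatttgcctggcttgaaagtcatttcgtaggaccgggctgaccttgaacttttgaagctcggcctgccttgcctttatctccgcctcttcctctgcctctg
Sgk1, chr10:21993640-21993889, plus strand: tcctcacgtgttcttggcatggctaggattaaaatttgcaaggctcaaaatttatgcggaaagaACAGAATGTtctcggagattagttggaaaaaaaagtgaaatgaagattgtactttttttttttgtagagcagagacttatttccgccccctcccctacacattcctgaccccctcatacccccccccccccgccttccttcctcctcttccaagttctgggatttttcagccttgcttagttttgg
Gse1, chr8:120535607-120535856, plus strand: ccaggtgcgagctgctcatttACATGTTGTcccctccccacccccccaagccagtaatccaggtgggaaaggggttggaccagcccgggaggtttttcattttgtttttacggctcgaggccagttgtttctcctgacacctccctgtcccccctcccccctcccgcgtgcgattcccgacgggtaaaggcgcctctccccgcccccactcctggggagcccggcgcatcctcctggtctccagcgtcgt

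Genes of the circadian clock differed in both directions. Of 21, 14 were higher and 7 lower in daily males, with a median of 0.12, and 3 were higher and 1 lower at an unadjusted p under 0.05, against 6.55% and 7.18% of all genes. The median was 0.23 without weekly replicate 1. Per3, a repressor in the clock loop, had 10.8, 14.7 and 11.8 CPM in daily and 6.24, 6.81 and 7.17 CPM in weekly males (0.88 ± 0.38, edgeR adjusted p = 0.318, and 0.0309 with 9 male libraries). Nr1d2 and Rora, nuclear receptors that act on the same promoter elements in opposite ways, had log2 differences of 0.38 ± 0.16 and 0.35 ± 0.16 with separate groups. Bhlhe41, a repressor that competes for E-boxes, was lower in daily males, with 29.1, 24.5 and 25.8 CPM against 44.7, 42.3 and 30.5 CPM (-0.56 ± 0.21, adjusted p = 0.253). Ciart, another repressor of the loop, had 2.22, 2.2 and 1.95 CPM against 4.48, 5.56 and 1.67 CPM (-0.85 ± 0.48), with weekly replicate 3 below all daily libraries. Arntl, Npas2 and Dbp, which span the core activators and an output gene, had overlapping groups and log2 differences of 0.23 ± 0.37, 0.15 ± 0.34 and -0.25 ± 0.64. Injections, and the force measurement just before tissue collection, took place in the morning per the study's methods. The labels give no hour for single libraries, and its part was not tested.

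The E-box CACGTG, where the clock activators bind, was found in the windows of 5 of 17 matched clock genes, Bhlhe41, Ciart, Cry1, Per1 and Tef, against 11.8% of all matched genes. TAGGTCA, where the nuclear receptors of the clock bind, was found for Arntl and Nfil3 among the clock genes and in 2.12% of all matched genes. CACGTG was also found for 5 of 18 matched receptor targets. Among the 9 matched of the 12 genes higher in daily males, CACGTG was found for Gigyf2 and Kidins220 and TAGGTCA for Hnrnph1. Neither was found for the 9 matched of the 12 lower genes, too few to set against the shares of all matched genes. The E-boxes of Bhlhe41 and Ciart are shown in capitals because these clock genes had the lowest daily values relative to weekly. Bhlhe41 holds 1, at 153 bases before the start, and Ciart 3, at 116, 58 and 44 bases before it.
Bhlhe41, chr6:145865559-145865670, minus strand: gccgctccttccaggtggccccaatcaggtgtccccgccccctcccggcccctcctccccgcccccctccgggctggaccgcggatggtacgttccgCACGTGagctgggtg
Ciart, chr3:95882252-95882478, minus strand: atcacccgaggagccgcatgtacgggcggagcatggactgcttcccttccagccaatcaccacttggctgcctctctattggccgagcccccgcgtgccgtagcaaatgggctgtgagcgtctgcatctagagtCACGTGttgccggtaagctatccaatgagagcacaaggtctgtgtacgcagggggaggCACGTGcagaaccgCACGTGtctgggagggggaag

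The IGF1, PI3K and mTOR list, which links growth factors to protein synthesis, had 24 of 30 genes higher in daily males, with a median of 0.16. At an unadjusted p under 0.05, 5 were higher and 1 lower, against 6.55% and 7.18% of all genes. Its genes are long, with a median of 6536 bases, and the median was 0.10 with length and GC trends removed. Among the receptors, Igf2r had 89.0, 99.5 and 101 CPM in daily and 71.4, 63.4 and 70.1 CPM in weekly males (0.50 ± 0.11, edgeR adjusted p = 0.13, and 0.03 with 9 male libraries), and Igf1r and Insr had log2 differences of 0.59 ± 0.34 and 0.37 ± 0.18. Among the kinases, Mtor had 36.1, 39.4 and 42.7 CPM against 31.9, 30.0 and 33.8 CPM (0.30 ± 0.10), and Pik3cb, a catalytic subunit of PI3K, had 12.9, 12 and 13.6 CPM against 5.18, 8.15 and 9.81 CPM (0.73 ± 0.26). All of these had separate groups. The ligand Igf1 went the other way, with 16.7, 14.6 and 15.7 CPM in daily and 21.2, 21.4 and 17.8 CPM in weekly males (-0.36 ± 0.29), as did the regulatory subunit Pik3r2 (-0.42 ± 0.14).

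Slow-fibre genes overlapped between the regimens, while some fast-fibre genes did not. Myh7, the slow myosin heavy chain, had 0.902, 0.943 and 20.9 CPM in daily and 2.99, 2.01 and 94.5 CPM in weekly males, and Myh2, the fast oxidative form, had 52.2, 29.5 and 726 CPM against 78.8, 135 and 803 CPM. Replicate 3 was thus far above the others in both groups. All 9 slow-fibre genes tested were lower in daily males with a median of -1.67, 0 at an unadjusted p under 0.05 and 0 with separate groups, and the median was between -2.34 and 0.00 when 1 of the 6 libraries was left out. The value of 0.00 was without weekly replicate 3. Of 12 fast-fibre genes, 2 were higher and 5 lower with separate groups, against 12% and 13% of all genes, and 2 were lower at an unadjusted p under 0.05. Their median was -0.27, and -0.41 (without daily replicate 3) to -0.08 (without daily replicate 2) with 1 library left out. Myh4, the fast glycolytic form that makes up most of this muscle, had a log2 difference of 0.43 ± 0.22. Tnnc2 and Pvalb, the fast calcium sensor and a calcium buffer, had log2 differences of -0.51 ± 0.20 and -0.55 ± 0.20 with separate groups. In the calcium handling list the median over 30 genes was -0.03, with 2 genes higher and 3 lower at an unadjusted p under 0.05, near the 6.55% and 7.18% of all genes. Ryr1, the calcium release channel, had 3371, 3145 and 3871 CPM in daily and 2512, 2394 and 2512 CPM in weekly males (0.49 ± 0.17).

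Markers of other cells were read from summed levels and single genes. Red cell markers (Hba-a1, Hba-a2, Hbb-bs, Hbb-bt and Alas2) summed to 104 to 122 CPM in daily and 158 to 201 CPM in weekly males, with 115 to 170 CPM in vehicle males. All 5 were lower in daily males at an unadjusted p under 0.05 with separate groups, against 7.18% and 13% of all genes. Their median log2 difference was -0.67, or -0.37 with length and GC trends removed. The 4 globin genes are short and near-identical in pairs. Adipocyte markers summed to 1106 to 2084 CPM in daily and 884 to 1481 CPM in weekly males, and were above the 567 to 870 CPM of the vehicle libraries in both regimens. Of the 10 adipocyte markers, Plin4 alone had an unadjusted p under 0.05, with 639, 431 and 459 CPM against 212, 321 and 298 CPM (0.88 ± 0.29), and Adipoq, the secreted product of fat cells, overlapped, with 82.7, 29.0 and 27.2 CPM against 21.4, 65.1 and 32.6 CPM. Macrophage markers summed to 64.3 to 81.6 CPM and 64.2 to 74.7 CPM, and 4 of 10 were higher in daily males with a median log2 difference of -0.09 (-0.15 to 0.05 with 1 library left out). Besides Cd68, Cd163, a scavenger receptor of macrophages, had separate groups, with 7.43, 5.78 and 6.63 CPM against 4.22, 5.66 and 5.15 CPM (0.40 ± 0.21). Of the 7 fibroblast markers, Pdgfra had 32.2, 37.4 and 27.5 CPM against 21.6, 17.1 and 20.3 CPM (0.72 ± 0.27), while the sums of 654 to 1039 CPM and 565 to 913 CPM overlapped. Scx, a tendon transcription factor, had 2.78, 3.08 and 2.05 CPM against 8.96, 4.6 and 5.92 CPM (-1.28 ± 0.33). Brown adipocyte markers, of which 3 of 5 reached the count limit, summed to 3.33 to 7.15 CPM in daily and 8.14 to 14.2 CPM in weekly males without overlap. Both regimens were above the 2.45 to 3.02 CPM of the vehicle libraries. Of the 3, 0 had an unadjusted p under 0.05 between the regimens. The sums of endothelial, Schwann cell, smooth muscle, satellite cell and tendon markers overlapped between the regimens, and no neutrophil marker reached the count limit. The part of other cells in the differences was not tested beyond a fit with the adipocyte score as a covariate, which called 0 genes and had 1825 at an unadjusted p under 0.05.

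Interferon-stimulated genes had a median of 0.30 with 15 of 22 higher in daily males, but Iigp1 alone had an unadjusted p under 0.05. The median was 0.0761 without weekly replicate 2, 0.0943 without daily replicate 2 and up to 0.40 without weekly replicate 1. Immediate early genes, which respond to handling and stress within minutes, had a median of 0.18 with 16 of 19 higher and 0 at that limit. Their median was 0.02 without daily replicate 2, -0.04 without weekly replicate 3, 0.30 without daily replicate 3 and 0.59 without weekly replicate 1, so its sign rests on single libraries. The list of the neuromuscular junction and denervation had 6 of 16 genes higher and 10 lower in daily males, with a median of -0.08. Of the 16, 2 were higher at an unadjusted p under 0.05, against 6.55% of all genes. Musk, the receptor kinase that organises the junction, had 8.05, 12.9 and 8.88 CPM in daily and 4.22, 5.47 and 5.71 CPM in weekly males (0.96 ± 0.30, edgeR adjusted p = 0.182, and 0.0491 with 9 male libraries). Lcn2, a secreted iron-binding protein, was at the same level in both regimens, with 5.97, 5.85 and 4.78 CPM in daily and 5.71, 5.75 and 3.90 CPM in weekly males, while vehicle males had 1.23 to 1.27 CPM. The log2 difference between the regimens was 0.12 ± 0.34 (95% interval -0.59 to 0.83).

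The female mice, which are other animals, gave a second comparison of the regimens from the same fit. The running numbers in the library labels go through all daily before all weekly libraries in both sexes. The part of this order was not tested. Of the 1780 genes with an unadjusted p under 0.05 in males, 1616 (90.8%) had the same sign in females, against 67.3% of all genes tested, and 859 (48.3%) also had an unadjusted p under 0.05 with the same sign there, where 18.2% of all genes tested had one in either direction. Only 17 had an unadjusted p under 0.05 with the opposite sign. The female libraries share the length trend, with medians from -0.28 in the shortest to 0.16 in the longest class, and its part in the overlap was not tested. Of the 295 genes called with 9 male libraries, 286 had the same sign in females. Across all genes tested, which are not independent, the log2 differences of the sexes correlated with a Pearson r of 0.453. The respiratory chain list had a median of -0.48 in females, with 75 of 78 genes lower, and cytosolic ribosomal proteins one of -0.50. Other lists had medians of opposite sign in the sexes, with 0.30 in males and -0.24 in females for interferon-stimulated genes, 0.18 and -0.16 for immediate early genes, 0.26 and -0.65 for adipocyte markers, and 0.20 and -0.44 for fibroblast markers. The male adipocyte median was -0.42 without daily replicate 1 and 0.61 without weekly replicate 2, and the male fibroblast median was 0.08 without daily replicate 2 and 0.40 without weekly replicate 1.

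**Figure D5:**
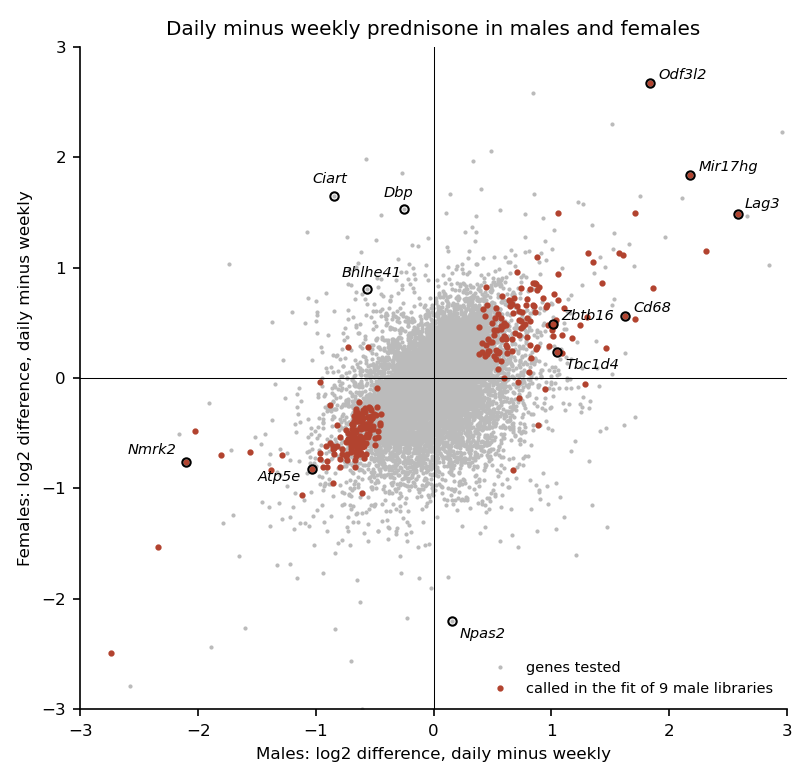
Log2 difference between daily and weekly prednisone in males (x axis) and females (y axis), with 1 point per gene and the genes called in the fit of 9 male libraries in red. A further 12 genes lie outside the axes. Most red points lie in the lower left and upper right, while Bhlhe41, Ciart and Dbp lie at the upper left and Npas2 at the lower right.

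The difference between the sexes was tested directly as an interaction. By edgeR, 0 of 12960 genes (0.0%) passed, the smallest adjusted p was 0.9998, and 473 had an unadjusted p under 0.05. DESeq2 also called 0 genes, with a smallest adjusted p of 0.0617. edgeR with a replicate block within each sex called 0, with a smallest adjusted p of 0.239. The interaction has wider errors, with a median standard error of 0.31. Bhlhe41, Ciart and Npas2 of the clock list had log2 differences of opposite sign in the sexes. Bhlhe41 was higher in daily than in weekly females, with 27.1, 29.4 and 29.1 CPM against 15.1, 16.1 and 17.8 CPM, the reverse of the males, and the female minus male difference was 1.37 ± 0.31. Ciart had 7.29, 10.6 and 9.27 CPM in daily and 0.873, 4.05 and 3.88 CPM in weekly females, a female minus male difference of 2.5 ± 0.66. Npas2 had 1.38, 0.568 and 0.727 CPM against 4.37, 5.01 and 2.87 CPM in females, with a female minus male difference of -2.36 ± 0.51. Tbc1d4, the gene with the second smallest p in males, had 39.0, 39.3 and 34.0 CPM against 34.5, 25 and 35.8 CPM in females (0.23 ± 0.17, female minus male -0.82 ± 0.24). Nmrk2 overlapped between the regimens in females, where the log2 difference was -0.76 ± 0.46.

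Against the male vehicle group, which both regimens share, values after daily and weekly prednisone are given side by side. The log2 differences from vehicle were 0.89 ± 0.15 after daily and 0.04 ± 0.15 after weekly prednisone for Rbbp6, and -1.22 ± 0.19 and -0.18 ± 0.19 for Atp5e. For Tbc1d4 they were 0.52 ± 0.17 and -0.53 ± 0.18, and for Trim63 0.30 ± 0.52 and -0.81 ± 0.53. The respiratory chain list had medians of -0.73 and -0.15, cytosolic ribosomal proteins -0.55 and -0.19, and the atrophy list 0.11 and -0.15.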

How the data were processed

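The authors deposited raw read counts per gene for 18 libraries of polyA RNA, aligned to mm10 per the study's methods. The submitters' processing notes list both mm10 and mm9, and name TopHat2 2.1.0, Bowtie2 2.2.6 and HTSeq. The strand setting and annotation release are not given in the sources used here, so overlapping and near-identical genes can share reads. Counts were used as deposited, with 0 columns left out.

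Genes with at least 10 counts in 3 of the 6 male daily and weekly libraries were tested with edgeR 4.0.16 (R 4.3.3; TMM scaling, robust quasi-likelihood, 6 group means over 18 libraries, Benjamini-Hochberg adjustment, threshold 0.05). Standard errors were taken from the F statistic. Alternatives were DESeq2 1.42.0, limma 3.58.1, other filters, samples and scalings, a replicate block and each library left out. The script was tested on simulated data. Longest coding transcripts of GENCODE gave length and GC content for 12902 genes.

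The genes and lists were chosen with earlier results of these data known. Genes named were the 12 higher and 12 lower with the smallest p among named genes whose mean log2 CPM exceeded 1 and whose groups were separate, the 4 largest differences each way with an unadjusted p under 0.05, from each list up to 4 members with the smallest p and those at its extremes, and genes set by name. Exceptions chosen after their values were seen are members of the lists that illustrate a level. The summed level of lymphocyte markers is not reported here.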

Additional observations from a re-analysis of the deposited data

Results flagged for a closer look

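Bhlhe41 was the gene among those described whose daily libraries all lay below the weekly libraries in males and all above them in females. The female minus male difference was 1.37 ± 0.31 on the log2 scale, and edgeR's adjusted p for it was 0.9998. Over all genes tested, 25 had groups separated in opposite directions in the sexes and 918 in the same direction.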

How the results depend on the processing

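The main fit called 0 genes. The count was 227 by DESeq2, 295 with 9 male libraries, 10 with 6, 2 with no filter on low counts, and 0 to 1 when 1 library was left out, with 1 only without daily replicate 2. At an unadjusted p under 0.05 there were 1213 to 1711 genes with 1 library left out, 968 with length and GC trends removed and 881 with the replicate block as well. For the sex difference there were 260 (without male daily replicate 2) to 1323 (without female weekly replicate 1), and 314 without male weekly replicate 2. The filter on level and fold passed 1224 genes at a mean log2 CPM above 1 and 54 at an absolute log2 difference above 1, against 811.

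Replicate numbers did not pair the libraries: same-numbered daily and weekly libraries had correlations of 0.12, -0.31 and 0.21. The replicate block called 0 genes, with 1617 at an unadjusted p under 0.05.

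With 1 library left out, list medians were -0.76 to -0.40 for mitochondrially encoded proteins and 0.0915 to 0.23 for the clock. With the trends removed, alone and with the replicate block, they were -0.34 and -0.35 for the respiratory chain, -0.13 and -0.13 for cytosolic and -0.20 and -0.19 for mitochondrial ribosomal proteins, and for the atrophy list 0.14 with both.

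The sign of 14 genes with small or variable differences changed in some settings, and the cause was not tested. With 1 library left out the log2 differences were -0.50 to 0.80 for Adipoq, -0.0311 to 0.39 for Cry1, -0.40 to 0.17 for Dbp, -0.0384 to 0.42 for Foxo1, -0.0317 to 0.23 for Lcn2, -0.28 to 0.46 for Mt1, -3.05 to 1.32 for Myh2, -5.17 to 1.51 for Myh7, -0.12 to 0.16 for Ndufs1, -0.31 to 0.24 for Nfil3, -0.19 to 0.46 for Npas2, -0.13 to 0.13 for Sdha and -0.0589 to 0.25 for Tsc22d3. Myh2 and Myh7 were positive without weekly replicate 3. With the trends removed, alone and with the replicate block, they were 0.0016 and 0.0031 for Acta1, -0.018 and -0.025 for Ndufs1, -0.0084 and -0.0195 for Sdha, and 0.10 and 0.17 for Nfil3. Nfil3 was 0.0599 by limma-voom, 0.0167 with no filter, 0.0048 with 9 male libraries and 0.0649 with the replicate block, Sdha -0.0026 with the replicate block, and Mt1 -0.0099 with the adipocyte score as a covariate. No other gene described changed sign. Adjusted p over the alternatives spanned 0.000162 to 0.487 for Tbc1d4, 0.0012 to 0.487 for Nmrk2 and 0.0317 to 0.722 for Trim63.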
